A study of Mus musculus with 12 samples.

Results

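The 10 genes described here carry glucose into the cell and through glycolysis to lactate or towards the mitochondria. They were chosen by symbol under a rule that used no measured value, although earlier results of these data were known. The genes are Slc2a1, Slc2a3, Hk2, Pfkl, Aldoa, Pgam1, Eno1, Pkm, Ldha and Pdk1. All 10 were found in both deposited comparison tables, among 45706 genes listed for blastocysts and 13009 protein-coding genes listed for embryonic stem (ES) cells. The study compared mice lacking Dis3l, which encodes the catalytic subunit of the cytoplasmic RNA exosome, with wild type. One material was the blastocyst, an embryo that has not yet implanted, and the other was ES cells, pluripotent lines established from such embryos. The labels give 4 groups of 3 samples each, for 12 samples in all: Dis3L KO blastocysts, Dis3L WT blastocysts, Dis3L KO ES cells and Dis3L WT ES cells. Blastocysts were dissected 96 h after hCG, the hormone given to induce ovulation, and each library came from a single embryo. ES cell lines had been derived and grown on inactivated mouse fibroblast feeders in medium with 15% serum and 500 IU/ml of the cytokine LIF. How the knockout allele was made, and whether the 3 ES cell samples of a genotype are separate lines, is not given in the sources used here, so for ES cells the p-values measure the spread between samples that may share a line.

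Glucose enters cells through facilitative transporters of the SLC2A family and is trapped by hexokinase as glucose 6-phosphate. Phosphofructokinase commits the sugar to glycolysis, aldolase splits it, and phosphoglycerate mutase, enolase and pyruvate kinase carry the products to pyruvate. Lactate dehydrogenase then turns pyruvate into lactate, or pyruvate enters the mitochondria through pyruvate dehydrogenase, which pyruvate dehydrogenase kinase inhibits. Mouse embryos are known to depend on pyruvate and lactate at first and to take up and use glucose as they form a blastocyst, and ES cells are known for a high glycolytic rate.

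In the GRCm38 coordinates of the tables, the transporter genes are Slc2a1 (ENSMUSG00000028645, chromosome 4, 119108711 to 119137983) and Slc2a3 (ENSMUSG00000003153, chromosome 6, 122727809 to 122801640). Hk2 (ENSMUSG00000000628) lies on chromosome 6 at 82725025 to 82774454 and Pfkl (ENSMUSG00000020277) on chromosome 10 at 77986947 to 78010083. Aldoa (ENSMUSG00000030695, chromosome 7, 126795234 to 126800751), Pgam1 (ENSMUSG00000011752, chromosome 19, 41911871 to 41918664), Eno1 (ENSMUSG00000063524, chromosome 4, 150236721 to 150248879) and Pkm (ENSMUSG00000032294, chromosome 9, 59656368 to 59679375) follow in the pathway. Ldha (ENSMUSG00000063229) lies on chromosome 7 at 46841475 to 46855627 and Pdk1 (ENSMUSG00000006494) on chromosome 2 at 71873224 to 71903858.

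The tables hold the authors' mean, log2 fold change, standard error (SE) and p-value of each gene but no value per sample. Every mean adds up whole reads, and a read weighs the same for all genes of a count column, so the reads could be solved for exactly (99.3% of blastocyst genes with a mean above 0 and 99.98% of ES cell genes, each checked by refitting the deposited fold change). The blastocyst table rests on 6 count columns (3 per side) that hold between 1514628 and 3566778 recovered reads. The ES cell table rests on 4 columns, 2 on each side, of 1118528 to 1882127 reads, whereas the labels list 6 ES cell samples. Neither table states which genotype a positive fold change favours. Columns are therefore called positive-side or negative-side by the sign of the deposited fold change they go with, and were not assigned to a genotype. Within a side they are numbered by falling size factor, the scale for sequencing depth. A shared number therefore does not pair columns across sides. Dis3l itself was lower on the positive side in ES cells, with 14 and 8 reads there and 39 and 39 on the negative side, and overlapped between sides in blastocysts, with 26, 8 and 0 reads against 10, 4 and 8. ES cell fold changes were shrunken towards 0 by the authors, and values with the shrinkage undone are given where they matter. In bulk RNA, fewer cells of a type and less RNA per cell cannot be told apart.

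In blastocysts none of the 10 genes passed the test, and Pfkl came closest. The authors' deposited table gave an adjusted p-value under 0.05 to 0 of the 10 genes, beside 15 of 15209 genes tested (0.0986%). With an unadjusted p-value under 0.05 stood 1 of the 10, Pfkl, beside 6.21% of tested genes. limma on the recovered reads gave 0 of the 10 after adjustment and the same 1 gene before it, beside 6.82% of all genes before adjustment. By sign 5 of the 10 were positive and 5 negative, with a median log2 fold change of 0.03, while over all genes tested the median was −0.04 and 48.3% were positive. The columns of the sides lay apart in 1 gene, Pgam1, beside 10.0% of all tested genes with recovered reads (4.76% with the positive side higher and 5.28% with the negative).

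The glucose transporters differed in level and in sign, and neither passed the test. Slc2a1 (GLUT1, a widely expressed transporter) had 180, 272 and 173 normalised reads in positive-side blastocysts against 295, 280 and 259 in negative-side ones. Positive-side columns 1 and 3 lay below every other column, and positive-side column 2 lay between negative-side columns 3 and 2. In blastocysts the authors' deposited table gave Slc2a1 a log2 fold change of −0.42 with an SE of 0.40 (adjusted p = 0.820). Slc2a3 (GLUT3, a high-affinity transporter) was the most abundant transporter, with 4586, 4847 and 6173 normalised reads for the positive side against 2698, 5140 and 3738 for the negative side. Here negative-side columns 1 and 3 were the lowest of the 6 and negative-side column 2 lay among the positive-side columns. Its log2 fold change in the authors' deposited table was 0.43 with an SE of 0.28, an interval of 95% from −0.13 to 0.99, and the adjusted p-value was 0.811.

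The members that trap glucose and commit it to glycolysis, Hk2 and Pfkl, had positive fold changes. Hk2, the hexokinase that sits on the mitochondrial outer membrane, had 2089, 1431 and 1623 normalised reads for the positive side against 785, 1725 and 1260 for the negative side. The sides overlapped through negative-side column 2, the second highest of the 6. The authors' deposited table gave Hk2 a log2 fold change of 0.45 with an SE of 0.33 (adjusted p = 0.811). Refitted with a column left out, it ranged from 0.20 without negative-side column 1 to 0.75 without negative-side column 2, and that of Slc2a3 from 0.23 to 0.69 without the same columns. Pfkl, the liver-type phosphofructokinase, had 868, 1143 and 898 normalised reads for the positive side against 291, 963 and 233 for the negative side. Negative-side columns 1 and 3 held about the same low level, and negative-side column 2 fell within the range of the positive side. For Pfkl the authors' deposited table gave the largest change of the 10 genes, a log2 fold change of 0.97 with an SE of 0.46, Wald p = 0.0363 (adjusted p = 0.769). Its value turned on single columns, from 0.63 without negative-side column 3 to 1.89 without negative-side column 2, refitted at the dispersion implied by the deposited SE. The adjusted p-value of that refit was 0.0759 without negative-side column 2. limma on the recovered reads gave Pfkl an unadjusted p-value of 0.00179 (adjusted p = 0.444).

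Among the members from aldolase to pyruvate kinase, all 4 blastocyst fold changes were negative and none passed. Of the enzymes between them that are not members, Gapdh had 0.08, Tpi1 −0.09 and Pgk1 −0.30 in the authors' deposited table. Aldoa, the aldolase that splits fructose 1,6-bisphosphate, had 2107, 1494 and 1303 normalised reads for the positive side against 2952, 1505 and 2526 for the negative side. Negative-side columns 1 and 3 were the highest, and negative-side column 2 again lay within the positive-side range. Its log2 fold change in the authors' deposited table was −0.51 with an SE of 0.32 (adjusted p = 0.811). Pgam1, phosphoglycerate mutase, had 111, 79.2 and 82.3 normalised reads for the positive side against 119, 147 and 147 for the negative side. It was the member whose sides did not overlap, yet the gap between 111 and 119 was narrow. The authors' deposited table gave Pgam1 a log2 fold change of −0.59 with an SE of 0.52 (adjusted p = 0.811).

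Enolase and pyruvate kinase were spread as widely within a side as between the sides. Eno1 had 742, 438 and 462 normalised reads for the positive side against 827, 524 and 426 for the negative side, so that column 1 was the highest on each side. The log2 fold change of Eno1 in the authors' deposited table was −0.12 with an SE of 0.37. Pkm had 1266, 999 and 811 normalised reads for the positive side against 970, 1670 and 987 for the negative side. Negative-side column 2 was the highest for Pkm, and the authors' deposited table gave it a log2 fold change of −0.24 with an SE of 0.32.

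The genes at the fork from pyruvate were thinly covered in blastocysts. Ldha, the lactate dehydrogenase subunit that favours lactate, had 70, 104 and 84 recovered reads for the positive side against 14, 128 and 32 for the negative side. The negative side thus held both the lowest and the highest column, and the authors' deposited table gave Ldha a log2 fold change of 0.35 with an SE of 0.87. Pdk1, the kinase that inhibits pyruvate dehydrogenase, had 42, 14 and 8 reads against 58, 10 and 0. All read numbers of Ldha and Pdk1 in blastocysts were even. The same held for Slc2a3, Pfkl, Aldoa, Pgam1, Eno1, Pkm and Dis3l, while Slc2a1 (151, 477 and 251) and Hk2 (1547) had some odd numbers. Whether a fragment was counted as a pair of reads was not tested, so independent fragments may be fewer than reads for all of the 10 genes. For Pdk1 the SE in the authors' deposited table was 1.51, its interval of 95% ran from −2.80 to 3.14, and the 6 columns did not resolve a difference.

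**Figure D1:**
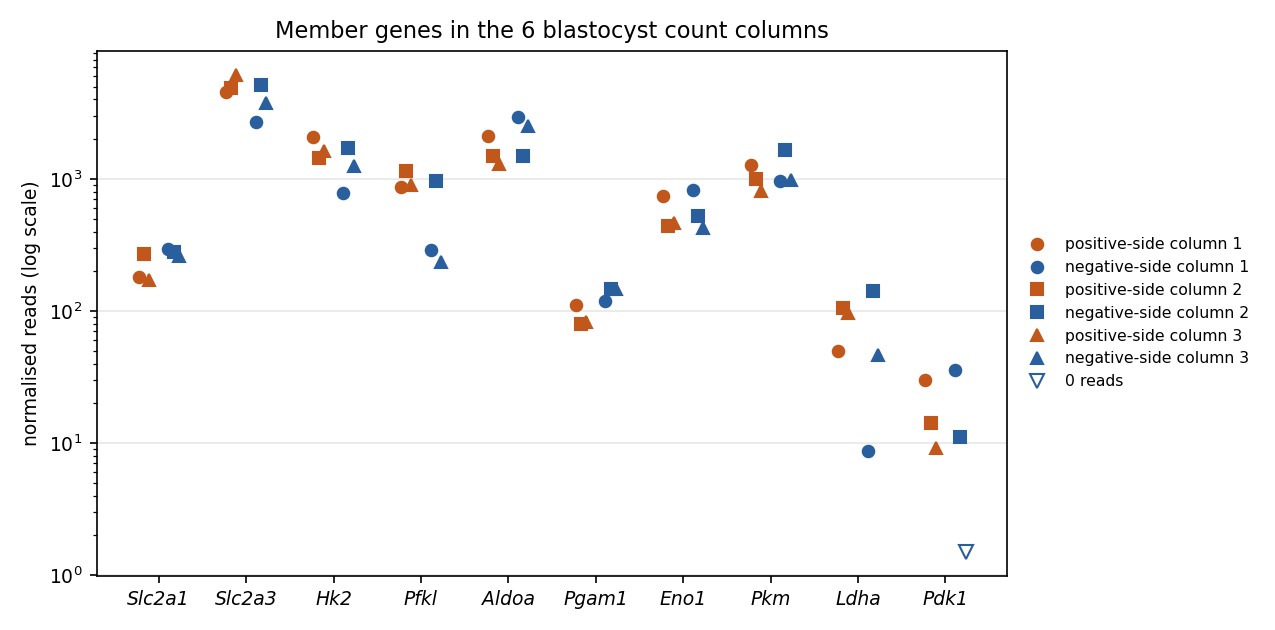
Normalised reads of each gene (vertical axis, log scale) in the 6 blastocyst count columns; orange marks are the 3 positive-side columns and blue marks the 3 negative-side columns, and the open triangle marks 0 reads. For Pfkl the negative-side square, at 963, lies with the positive-side marks while the other negative-side marks lie at 291 and 233.

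Cell type markers also varied across the blastocyst columns. The summed normalised reads of the 8 pluripotent cell markers were 1887, 1012 and 936 for the positive side against 2020, 1880 and 2463 for the negative side. Of the 8, the authors' deposited table gave 3 an unadjusted p-value under 0.05 (Pou5f1, Nanog and Tdgf1, each negative), beside 3.53% of all tested genes for that direction. The sums of the 7 primitive endoderm markers with recovered reads ranged from 6036 to 7312 on the positive side and from 5143 to 8645 on the negative side, so these overlapped. Those of 5 of the 8 trophectoderm markers were 5443 to 6148 against 4768 to 5016. Lama1, Krt8, Krt18 and Elf3, whose reads were not recovered, are not in these sums. Krt8 (mean 5505) and Krt18 (mean 7678), the most abundant trophectoderm markers, had the opposite sign to the sum of the 5, with log2 fold changes of −0.87 (SE 0.36) and −0.63 (SE 0.29) in the authors' deposited table. Of the 10 fibroblast markers 8 were listed at 0 in blastocysts, Col1a1, Col1a2, Col3a1 and Postn among them. The part of cell make-up in the blastocyst values of the 10 genes was not tested.

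In ES cells again none of the 10 genes passed, and Eno1 came closest. The authors' deposited table gave an adjusted p-value under 0.05 to 0 of the 10, beside 28 of 10739 genes tested (0.261%). Of the 10, Eno1 alone had a DESeq2 Wald p-value under 0.05 before adjustment in the authors' deposited table, beside 5.62% of tested genes. limma on the recovered reads gave 0 of the 10 after adjustment and 2 before it, Eno1 (p = 0.0362) and Slc2a1 (p = 0.0370), beside 9.47% of all genes under 0.05 by limma. By sign 6 were positive and 4 negative, with a median of 0.11 beside −0.0001 over all genes tested, of which 50.0% were positive. Sides lay apart in 2 of the 10, Slc2a1 and Hk2, with the negative side higher, beside 40.3% of all genes for either direction, 20.2% for that direction and 20.1% for the other.

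Of the uptake and trapping genes in ES cells, Slc2a1 had the second largest change of the 10 and Slc2a3 one of the smallest. Slc2a1 had 237 and 190 normalised reads for the positive side against 316 and 300 for the negative side, so both negative-side columns were higher. The authors' deposited table gave Slc2a1 in ES cells a log2 fold change of −0.44 with an SE of 0.24, Wald p = 0.0636 (adjusted p = 0.959), and undoing the shrinkage gave −0.52. Hk2 had 359 and 306 normalised reads against 400 and 418, likewise without overlap. In the authors' deposited table Hk2 had a log2 fold change of −0.26 with an SE of 0.22 in ES cells. Slc2a3 had 2818 and 2753 normalised reads for the positive side against 2365 and 3030 for the negative side. The positive-side columns of Slc2a3 lay between the negative-side ones, and the interval of its log2 fold change ran from −0.35 to 0.44 in the authors' deposited table.

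From phosphofructokinase to pyruvate kinase the ES cell columns differed more within a side. Pfkl had 111.8 and 147 normalised reads for the positive side against 169 and 94.7 for the negative side, and a log2 fold change of −0.02 (SE 0.29) in the authors' deposited table. Aldoa had 783 and 806 against 969 and 747 normalised reads, with −0.10 (SE 0.21) on the log2 scale in the authors' deposited table. In both genes the negative side held the highest and the lowest column. Pgam1 had 143 and 163 against 166 and 93.7 normalised reads, and 0.18 (SE 0.28) in the authors' deposited table. A second ES cell gene listed under the symbol Aldoa (ENSMUSG00000114515, chromosome 7, 126800790 to 126809108 in GRCm38) held 8, 1, 2 and 0 reads and had no adjusted p-value.

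Eno1 had the largest change of the 10 genes in ES cells. Its normalised reads were 964 and 1339 for the positive side against 976 and 451 for the negative side. Positive-side column 1 and negative-side column 1 were at about the same level, and the difference lay in the second column of each side. The authors' deposited table gave Eno1 a log2 fold change of 0.55 with an SE of 0.26, Wald p = 0.0357 (adjusted p = 0.819), and undoing the shrinkage gave 0.69. Without negative-side column 2 the log2 fold change of Eno1 was 0.17, and without negative-side column 1 it was 0.97 in that refit (adjusted p = 0.148). With 1 column left on a side, such a refit takes the lone column to vary like the others.

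Pkm, Ldha and Pdk1 were also low in negative-side column 2. Pkm, the most abundant of the 10 in ES cells, had 3276 and 4159 normalised reads for the positive side against 3961 and 2512 for the negative side. Ldha had 290 and 581 against 454 and 244. Pdk1 had 224 and 194 against 208 and 103, the other 3 columns being close together. Their log2 fold changes in the authors' deposited table were 0.17 (SE 0.23), 0.24 (SE 0.28) and 0.33 (SE 0.28), and none of these 3 passed. The value of Pdk1 turned on single columns, from 0.0050 without negative-side column 2 to 0.69 without negative-side column 1.

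**Figure D2:**
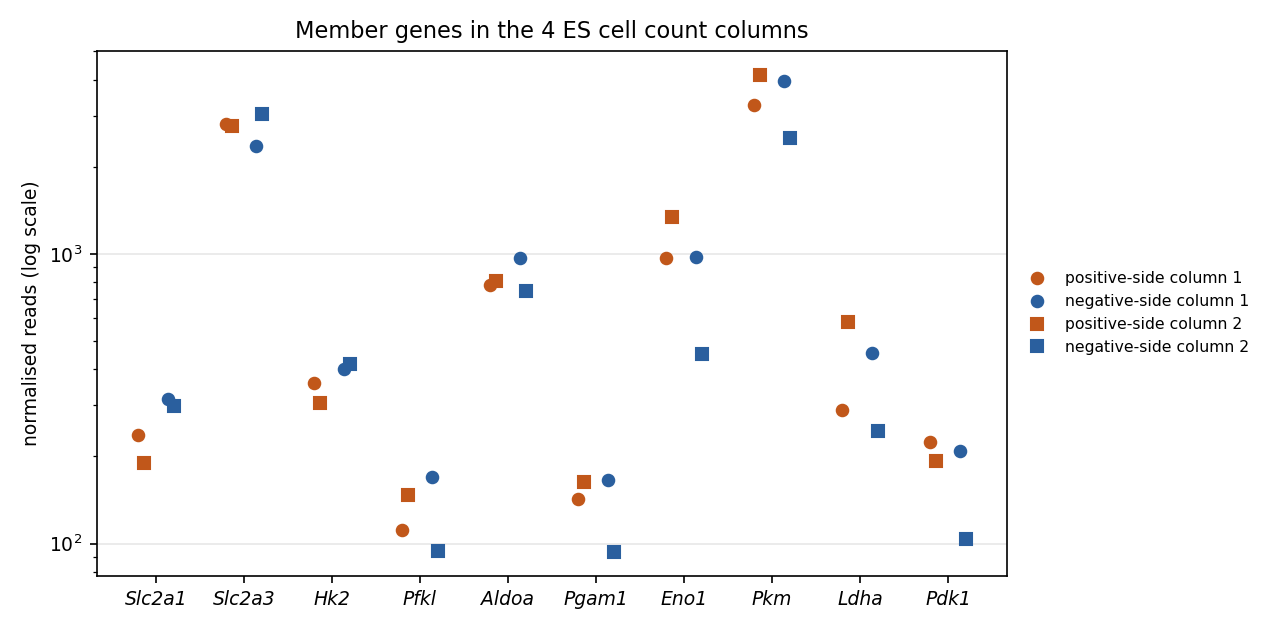
Normalised reads of each gene (vertical axis, log scale) in the 4 ES cell count columns; orange marks are the 2 positive-side columns and blue marks the 2 negative-side columns. The blue square, negative-side column 2, is the lowest mark for 7 of the 10 genes, Eno1 at 451 against 964 to 1339 in the other columns among them.

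The ES cell columns ordered the members in different ways. Negative-side column 2 was the lowest of the 4 columns for 7 of the 10 genes (Pfkl, Aldoa, Pgam1, Eno1, Pkm, Ldha and Pdk1), beside 29.8% of 10576 tested genes with a mean of at least 10. Slc2a1, Slc2a3 and Hk2, the uptake and trapping genes, were not lowest there, and Slc2a3 and Hk2 were highest in that column. For 3 of the 10, Pkm, Ldha and Eno1, positive-side column 2 was the highest and negative-side column 2 the lowest, an order seen in 11.97% of the tested genes. These shares describe 4 libraries, and each column is 1 sample. Summed over the 10 fibroblast markers the normalised reads ran the other way, with 2066 in negative-side column 2, 820 in positive-side column 2, and 1063 and 966 in the first columns of the positive and the negative side. All 10 fibroblast markers had reads in ES cells, Vim (mean 542) and Col3a1 (mean 259) being the highest, and the lines had been grown on feeders. Single markers differed: Col3a1 had 865 normalised reads in negative-side column 2 against 44.7 to 73.7 in the other columns, while Vim was lowest there, at 452. The 8 pluripotent cell markers summed to 4955 and 4136 on the positive side and to 6192 and 5419 on the negative side. The part of feeder cells or of culture state in the ES cell values was not tested.

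**Figure D3:**
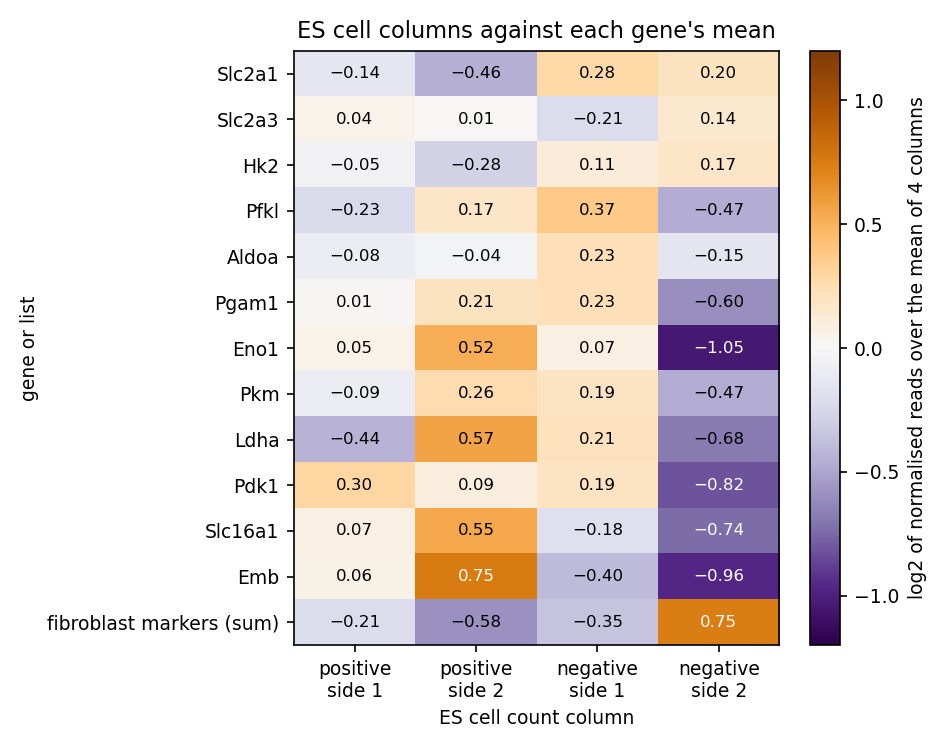
Each cell gives the log2 of normalised reads over the gene's mean of the 4 ES cell columns, for the 10 genes, the lactate transport genes Slc16a1 and Emb, and the sum of 10 fibroblast markers. Eno1, Pgam1, Ldha and Pdk1 are at −1.05, −0.60, −0.68 and −0.82 in negative-side column 2, where the fibroblast sum is at 0.75.

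The promoters of Hk2, Pgam1, Eno1 and Pdk1 are shown because these genes took opposite orders in the ES cell columns: Hk2 was highest in negative-side column 2 and the others were lowest there. Pfkl, Aldoa, Pkm and Ldha were also lowest there and are not printed. Each sequence is the 250 bases before the first start that the RefSeq table (GRCm38.p6) gives the gene, written 5′ to 3′ along the gene's strand, and lies outside the gene as the tables place it. Capitals mark the letters ACGTG, or CACGT where they lie on the other strand. ACGTG is one form of the core of hypoxia response elements, and within CACGTG it is part of an E-box. The other form of the hypoxia core, GCGTG, was not marked.
Hk2, minus strand, chr6:82774455-82774704: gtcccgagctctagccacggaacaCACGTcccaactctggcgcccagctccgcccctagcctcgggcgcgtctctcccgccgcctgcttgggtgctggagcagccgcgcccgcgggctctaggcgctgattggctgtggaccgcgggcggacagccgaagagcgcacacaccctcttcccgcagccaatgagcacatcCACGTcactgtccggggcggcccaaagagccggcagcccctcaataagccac
Pgam1, plus strand, chr19:41911621-41911870: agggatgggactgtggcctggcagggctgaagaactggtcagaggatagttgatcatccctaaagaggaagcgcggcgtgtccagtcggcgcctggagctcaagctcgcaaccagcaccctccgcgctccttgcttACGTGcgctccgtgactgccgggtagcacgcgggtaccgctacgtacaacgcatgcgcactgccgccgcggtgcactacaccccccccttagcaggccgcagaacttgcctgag
Eno1, plus strand, chr4:150236458-150236707: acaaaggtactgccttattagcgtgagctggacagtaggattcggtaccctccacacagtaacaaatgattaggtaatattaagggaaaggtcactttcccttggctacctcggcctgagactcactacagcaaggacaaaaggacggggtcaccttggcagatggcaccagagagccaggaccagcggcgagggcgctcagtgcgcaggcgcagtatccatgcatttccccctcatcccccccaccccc
Pdk1, plus strand, chr2:71872974-71873223: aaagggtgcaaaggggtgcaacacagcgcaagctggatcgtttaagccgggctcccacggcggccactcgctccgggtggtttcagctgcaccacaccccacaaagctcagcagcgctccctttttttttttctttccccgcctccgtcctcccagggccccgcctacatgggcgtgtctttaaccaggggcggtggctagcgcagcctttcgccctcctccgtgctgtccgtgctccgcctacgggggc
Hk2 held 2 matches of ACGTG and Pgam1 held 1, while the windows of Eno1 and Pdk1 held none. Of the genes lowest in the same column but not printed, Ldha held 5 in its first window, and Pfkl, Aldoa and Pkm none. The printed windows therefore do not stand for all genes lowest there. GCGTG was not counted, and the printed windows of Pgam1, Eno1 and Pdk1 hold it. Of the 10 genes 9 had a window in the table used. The first window held ACGTG on either strand in 4 of them (Slc2a1, Hk2, Pgam1 and Ldha). Of all 32851 windows of the same length, further starts of a gene included, 16.6% held it. Later windows of Aldoa and Pkm held it as well. The palindrome CACGTG, which contains ACGTG on both strands, was in the first window of 1 of the 9, Ldha, beside 6.02% of all windows. A match is a run of letters and was not tested as a binding site.

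The values of the materials are set side by side without comparing their signs, since neither table states its direction and a sign may stand for a different genotype in each. Pfkl had 0.97 in blastocysts and −0.02 in ES cells, both as listed in the authors' deposited tables, while Eno1 had −0.12 and 0.55. Whether any gene's change differed between the materials was not tested, because the libraries were made by different methods and the ES cell values are shrunken. In the authors' deposited tables the SE of the 10 genes ran from 0.28 (Slc2a3) to 1.51 (Pdk1) for blastocysts and from 0.20 (Slc2a3) to 0.29 (Pfkl) for ES cells.

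**Figure D4:**
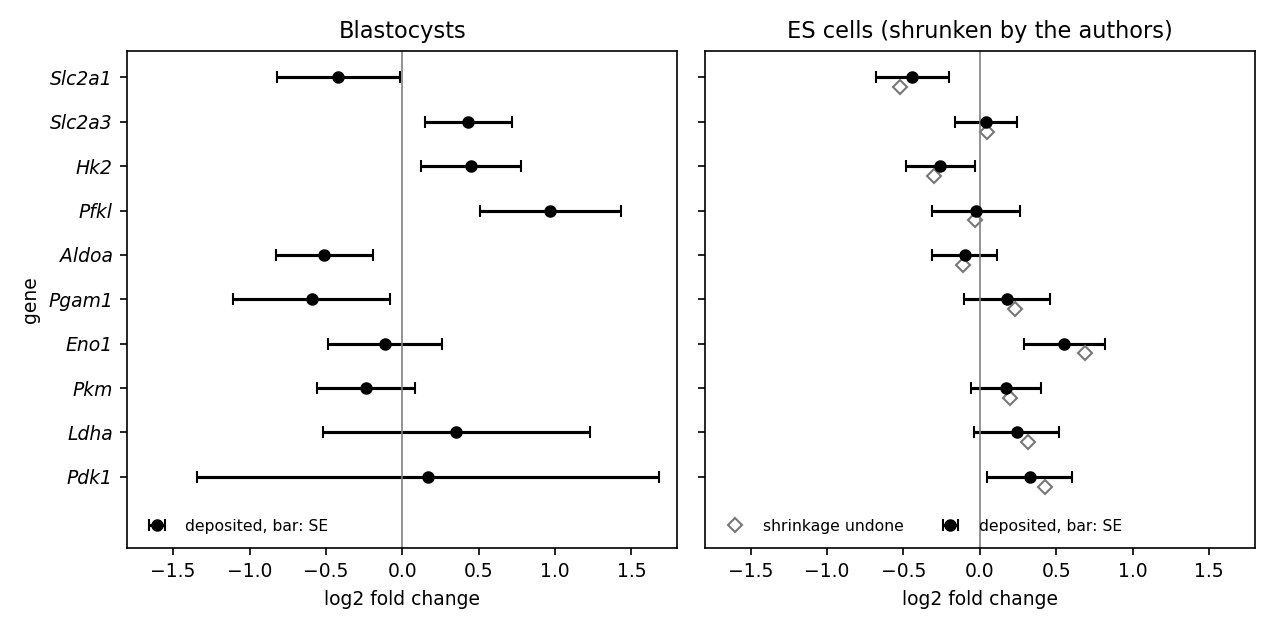
Deposited log2 fold change of each gene (points) with its SE (bars) in blastocysts and ES cells; open diamonds in the ES cell panel give the value with the shrinkage undone. Pfkl in blastocysts, at 0.97, and Eno1 in ES cells, at 0.55, lie farthest from 0, and the bar of Pdk1 in blastocysts, 1.51 to each side, is the longest.

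Levels were compared between genes as normalised reads per kilobase of exon, within a material. Those of Eno1, Pkm, Ldha and Pgam1 are uncertain because these genes have near-identical copies, described below. In blastocysts Aldoa (mean 681) and Slc2a3 (625) stood at the top, with ranges over the 6 columns of 448 to 1014 and 372 to 852 that overlapped each other. Slc2a3 did not overlap with Hk2 (mean 249, range 132 to 350), the next gene in order. Below it came Pkm (223), Pfkl (110), Eno1 (106), Slc2a1 (69.3), Pgam1 (57.6), Ldha (22.6) and Pdk1 (2.15), each overlapping with the next in its range over columns. Aldoa, Slc2a3 and Hk2 lay at percentiles 99.1, 99.0 and 96.6 of all tested genes per kilobase, and Pdk1 at 17.01. In ES cells the order per kilobase was led by Pkm (mean 695, range 502 to 832), which did not overlap with Slc2a3 (378, range 326 to 418). Slc2a3 overlapped with Aldoa (284), and Aldoa, range 257 to 333, did not overlap with Eno1 (173). Then followed Ldha (118), Slc2a1 (74.3), Pgam1 (71.4) and Hk2 (62.1), each overlapping with the gene before it. Pdk1 (23.4) and Pfkl (19.6) overlapped with each other and not with Hk2. Pkm, Slc2a3 and Aldoa lay at percentiles 99.7, 99.2 and 98.9 in ES cells and Pfkl at 62.3. Since blastocyst libraries were cut by Tn5 transposase from amplified cDNA and ES cell libraries came from ribosome-depleted RNA, the orders of the materials are given as descriptions.

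Within most enzyme families the member was the main gene per kilobase. Hk2 held a median of 91.5% of the reads per kilobase of the 5 hexokinase genes in blastocysts (range 83.2% to 97.5%), Hkdc1 holding 6.01% (0.357% to 13.6%). In ES cells, where Hk1 was the other hexokinase listed, Hk2 held 94.6% (92.5% to 95.1%). Slc2a3 held 89.7% (81.6% to 94.5%) of Slc2a1 and Slc2a3 together in blastocysts and 84.1% (78.4% to 87.5%) in ES cells. The main phosphofructokinase gene per kilobase was Pfkl in blastocysts and Pfkp in ES cells. Shares are described within each material and were not compared between them, because the libraries were made by different methods. Pfkl held 72.9% (72.0% to 85.6%) of the reads per kilobase of the 3 phosphofructokinase genes in blastocysts and 35.1% (23.9% to 38.8%) in ES cells, where Pfkp, the platelet type, held 52.4% (42.6% to 63.9%). Ldhb, the lactate dehydrogenase subunit that favours pyruvate, was listed at 0 in blastocysts and held 20.2% (17.2% to 29.2%) beside Ldha in ES cells. Pdk1 held 46.8% of the pyruvate dehydrogenase kinase reads per kilobase in ES cells (23.0% to 55.5%) and Pdk3 45.0%, of the kinases in that table (Pdk2 was not among them). In blastocysts these kinases had too few reads for an order, with shares of Pdk1 between 0% and 44.5%.

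The other glycolytic enzymes gave no call in either material. Of 21 listed, 13 were tested in blastocysts, and 0 of 13 passed, with a median log2 fold change of 0.07. Before adjustment, 0 positive and 2 negative ones were under 0.05, Hk1 and Eno2, beside 2.68% and 3.53% of all tested genes. Hk1, the hexokinase of most adult tissues, had 0, 10.1 and 11.4 normalised reads for the positive side against 24.7, 93.6 and 89.2 for the negative side. The sides of Hk1 did not overlap, and the authors' deposited table gave a log2 fold change of −3.29 with an SE of 1.15, Wald p = 0.00431 (adjusted p = 0.418). Eno2 had at most 14.4 normalised reads in any blastocyst column. Gapdh (mean 2115), Gpi1 (848) and Tpi1 (523), the most abundant of the list, had log2 fold changes of 0.08, 0.23 and −0.09 in the authors' deposited table. In ES cells 0 of 10 tested passed, with a median of −0.07, and 1 positive and 1 negative had an unadjusted p-value under 0.05, beside 2.21% and 3.42%. Pfkp had 349 and 325 normalised reads for the positive side against 488 and 507 for the negative side, so the negative side was higher in both columns. Its log2 fold change in the authors' deposited table was −0.49 with an SE of 0.22 (adjusted p = 0.713). Gapdh (mean 955) and Gpi1 (293) had 0.05 and −0.15 there.

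Lactate leaves the cell through monocarboxylate transporters, and none of their genes passed in either material. Slc16a1 (MCT1) had 607, 944 and 1012 normalised reads for the positive side against 318, 771 and 337 for the negative side in blastocysts. As for Pfkl, negative-side column 2 lay with the positive side, and the authors' deposited table gave Slc16a1 a log2 fold change of 0.85 with an SE of 0.40 (adjusted p = 0.769). In ES cells Slc16a1 had 196 and 274 normalised reads against 164 and 112.1, and Emb, a chaperone of such transporters, 167 and 269 against 121 and 82.1. The sides lay apart in both genes, as in 20.1% of all ES cell genes for that direction, and negative-side column 2 was the lowest, as for Eno1. Their ES cell log2 fold changes in the authors' deposited table were 0.61 (SE 0.27) and 0.85 (SE 0.28), with adjusted p-values of 0.693 and 0.233. Bsg, another chaperone of these transporters, had 0.05 and −0.08 in the authors' deposited tables for blastocysts and ES cells. Of the lactate transport list 0 of 5 tested genes passed in blastocysts and 0 of 4 in ES cells.

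Other glucose transporters were low. In blastocysts 5 of 11 were listed at 0 and 0 of 5 tested passed; Slc2a8 had the highest mean, 117, with a log2 fold change of −1.17 (SE 0.73) in the authors' deposited table. In ES cells 0 of 2 tested passed, and Slc5a1, a sodium-coupled transporter, had 3.99 and 9.22 normalised reads against 16.2 and 36.7. The enzymes that set fructose 2,6-bisphosphate, the activator of phosphofructokinase, gave 0 of 5 in either material. For Tigar, which lowers that activator, the authors' deposited tables gave 0.57 (SE 0.28) on the log2 scale in ES cells and −0.67 (SE 0.55) in blastocysts. The pentose phosphate list gave 0 of 11 in blastocysts (median 0.11) and 0 of 8 in ES cells (median −0.19, 7 negative). Glycogen and gluconeogenesis genes gave 0 of 14 and 0 of 10, and Ugp2, which makes UDP-glucose, had sides apart in blastocysts with 1251, 1397 and 1757 normalised reads against 960, 1119 and 915.

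Downstream of pyruvate most blastocyst fold changes were negative, and none passed. Of 16 tricarboxylic acid cycle genes tested, 13 were negative and 3 positive. Their median log2 fold change was −0.45 beside −0.04 over all tested genes, and 0 of 16 passed. Sides lay apart with the negative side higher in 5 of the 16, beside 5.28% of all genes for that direction, and 3 had an unadjusted p-value under 0.05, each negative, beside 3.53%. Mdh2, mitochondrial malate dehydrogenase, had 720, 652 and 512 normalised reads for the positive side against 1340, 776 and 1508 for the negative side. Negative-side column 2 was again the closest to the positive side, and the authors' deposited table gave Mdh2 a log2 fold change of −0.94 with an SE of 0.33, Wald p = 0.00408 (adjusted p = 0.414). Sdhb had −1.04 (SE 0.44) and Sucla2 −0.80 (SE 0.40) in the authors' deposited table. Summed over the 16 genes, normalised reads were 10950, 10014 and 9797 for the positive side against 14562, 10570 and 13683 for the negative side. Negative-side column 2 thus lay within the positive-side range, and the higher sums were those of negative-side columns 1 and 3. Members of a list share libraries and are not replicates, and no test was made over the list. Of the pluripotent cell marker sums given above, those of positive-side columns 2 and 3 lay below every negative-side one, and their part in these values was not tested. In ES cells the list had a median of 0.03 with 9 positive and 7 negative, and 0 of 16 passed; Suclg2 had 0.70 (SE 0.28) and the X-linked Idh3g −0.75 (SE 0.25) in the authors' deposited table. X-linked genes as a whole had a median of −0.31 in ES cells. Of 370 tested, 296 were negative, beside 5370 of 10739 over all genes, and 10 of the 28 genes called were X-linked. None of the 10 members is X-linked. Whether the sides differ in more than genotype, which could also bear on autosomal genes, was not tested. Genes for pyruvate entry into mitochondria, the subunits of pyruvate dehydrogenase among them, gave 0 of 12 in each material, with medians of −0.09 and 0.03.

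Among transcription factors and sensors known to act on glycolysis, 0 of 18 tested passed in blastocysts and 0 of 16 in ES cells. Epas1 (HIF-2α, an oxygen-regulated factor) was the 1 gene of this list with an unadjusted p-value under 0.05 in each material. The value of Epas1 was negative in each table, beside 3.53% of all tested genes for that direction in blastocysts and 3.42% in ES cells. Its blastocyst reads were 206, 110 and 107 for the positive side against 737, 66.9 and 495 for the negative side after normalisation, so negative-side column 2 was the lowest of all. The authors' deposited table gave Epas1 −1.62 with an SE of 0.63 in blastocysts (adjusted p = 0.581). In ES cells it had 64.7 and 42.1 normalised reads against 147 and 114, without overlap, and −0.94 with an SE of 0.29 in the authors' deposited table (adjusted p = 0.169). Hif1a, the related factor best known for driving glycolytic genes, had −0.48 (SE 0.29) in blastocysts and 0.14 (SE 0.22) in ES cells, as the authors' deposited tables give them. Hypoxia targets outside glycolysis gave 0 of 15 in blastocysts and 0 of 14 in ES cells, with medians of −0.27 and −0.02.

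Some members have near-identical copies, so that their reads could be split or shared. Eno1 had 3 genes with at least 95% identity over at least 200 bases: Eno1b (99.5% over 1736 bases), Gm4735 (99.6% over 1302) and Gm5855 (96.3% over 1306). Together these had a mean of 92.9 in blastocysts beside 570 for Eno1. In ES cells Eno1b alone was listed, with a mean of 83.3 and 79.8 and 170 normalised reads on the positive side against 46.6 and 36.7 on the negative side. Like Eno1 it was highest in positive-side column 2 and lowest in negative-side column 2, and the authors' deposited table gave it a log2 fold change of 1.07 with an SE of 0.31, Wald p = 0.000557 (adjusted p = 0.0981). The values of Eno1 and Eno1b are therefore uncertain. Pkm had 2 such copies, of which Gm6560 (98.4% over 1593 bases) had a mean of 60.8 in blastocysts beside 1117 for Pkm. Ldha had 4 copies, of which 2 were listed in blastocysts, and Pgam1 had Pgam1-ps2 (100% over 765 bases). Those of Ldha and Pgam1 that were listed in blastocysts had a mean of 0, and none was found for the other 6 genes. Whether reads matching several places were left uncounted was not tested, so the levels of Pkm, Ldha and Pgam1 are uncertain too. In ES cells only protein-coding genes were listed, so copies of other kinds could not appear.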

How the data were processed

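RNA-seq of 12 mouse samples in 4 labelled groups was used through 2 deposited tables of comparison statistics, with 0 columns of per-sample values. For the authors' processing, the submitters' processing notes name STAR 2.4.0b, SAMtools, bedtools, featureCounts, Subread 2.0.1, DESeq2 1.34.0 and GRCm38, without roles. Per the file headers, the signal column is the authors' mean of normalised counts, the log2 columns their fold change and its standard error, the score column their Wald statistic, and the p-value columns their p-value and adjusted p-value. Calls are the authors' adjusted p-values under 0.05; the design assumed counts per sample, with this as the fallback.

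Reads per count column were recovered from the means as whole multiples of the column steps, keeping a solution only if a negative binomial refit gave back the deposited log2 fold change within 1e-09 (Python 3.11.15, NumPy 2.4.6, SciPy 1.17.1). Blastocyst genes with a mean above 2500 were tried only where they stood in a list, and not all of these were solved. In simulated data, reads were recovered correctly for 255 of 255 blastocyst and 300 of 300 ES cell genes. The simulated blastocyst genes had a mean under 300, and draws without reads on a side were left out. Slc2a3, Aldoa, Hk2, Pkm, Pfkl and Eno1 have higher means in blastocysts, so this does not cover their recovery. The ES cell genes had a higher limit, which Pkm exceeds. With a log2 change of 2 in 200 of 15102 blastocyst and 200 of 10736 ES cell genes, 51.0% and 95.0% of the changed genes were called. The changed genes had a mean of at least 50, the fit was given the true dispersion, and ES cell values were not shrunken. The deposited changes of the 10 genes were all smaller than 2, so these shares do not apply to changes of their size. limma 3.58.1 (R 4.3.3) was run on log2 of normalised recovered reads plus 1. Of the gene IDs 45143 of 45706 and 12997 of 13009 were in GENCODE M21, used for exon lengths and copies. Intervals of 95% are the log2 fold change plus or minus 1.96 SE. No molecular identifiers are named in the labels, so read numbers bound counting error only. In blastocysts the bound is looser if a fragment was counted as a pair of reads.

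The members and lists were chosen with earlier results of these data known. Besides the members, the rule names genes of the 14 other lists with an unadjusted p-value under 0.05 or among the 3 highest means of their list, Dis3l and near-identical copies; of these, the ones bearing on the members are given. Alternatives covered thresholds, adjustment, a mean of at least 50, autosomal genes, rescaled statistics, limma and leaving out each column.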

Additional observations from a re-analysis of the deposited data

How the results depend on the processing

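No paired analysis was possible because the recovered count columns carry no replicate number and could not be tied to samples. Apart from leaving out columns, all 70 recomputed fold changes of the 10 genes kept their sign. Leaving out 1 column, refitted at the dispersion implied by the deposited standard error in place of the planned floor, kept 85 of 100 signs. In blastocysts the log2 fold change then ranged from −0.40 to 0.21 for Eno1, −0.42 to 0.069 for Pkm, −0.17 to 1.64 for Ldha and −0.44 to 1.66 for Pdk1. In ES cells the ranges were −0.10 to 0.20 for Slc2a3, −0.27 to 0.30 for Pfkl, −0.24 to 0.074 for Aldoa, −0.085 to 0.48 for Pgam1, −0.075 to 0.46 for Pkm and −0.18 to 0.56 for Ldha. Without a change of sign, values ranged from −0.66 to −0.30 for Slc2a1 and −0.74 to −0.30 for Aldoa in blastocysts. The cause was not tested. Calls among the 10 genes stayed at 0 under every alternative except an unadjusted p-value under 0.05, with 1 in each material. Over all tested genes the shares at that threshold were 6.21% in blastocysts and 5.62% in ES cells. Genes of the other lists numbered 15 in blastocysts and 13 in ES cells at that threshold, 2 in ES cells after rescaling the statistics, and 0 to 1 in blastocysts without 1 column. These counts are not read as a result about the lists.

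Of all blastocyst genes, 15 called became 9 at an adjusted p-value under 0.01, 945 unadjusted, 8 with a mean of at least 50, 9 rescaled, 1 by limma and 1 to 25 without 1 column. Of all ES cell genes, 28 became 604 unadjusted, 14 with autosomal genes only, 90 rescaled, 13 by limma and 5 to 29 without 1 column. The limma and leave-one-out counts were chosen after seeing the data. Recovered reads per blastocyst column were fewest for Pdk1 (0 to 58) and Ldha (14 to 128).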

Other observations

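The marker lists held genes with an unadjusted p-value under 0.05, and none passed after adjustment (authors' Wald test). In blastocysts the primitive endoderm factor Sox7 had 198, 108 and 171 normalised reads for the positive side against 0, 46.8 and 2.88 for the negative side, with a log2 fold change of 3.27 (adjusted p = 0.349) in the authors' deposited table (Wald test). The other primitive endoderm markers did not share it: 4 of the 7 tested were negative, with a median of −0.08, Gata6 at −0.77 and Gata4 at −0.32 in the authors' deposited table. Among trophectoderm markers Gata3 had 2112 to 2699 normalised reads on the positive side and 1482 to 2034 on the negative side, whereas Krt8 and Krt18 had the opposite sign. Tdgf1, a Nodal co-receptor of pluripotent cells, had 180, 146 and 61.7 normalised reads for the positive side against 455, 241 and 610 for the negative side. Its log2 fold change in the authors' deposited table was −1.75 (Wald test, adjusted p = 0.205). In ES cells the trophectoderm factor Tfap2c had 24.7 and 38.2 normalised reads for the positive side against 7.61 and 6.76 for the negative side. Of the 5 trophectoderm markers tested, 3 had the negative side higher without overlap, and the median of the 5 was −0.23. Over all ES cell genes the sides lay apart with the negative side higher in 20.2% and with the positive side higher in 20.1%. Col1a1, a fibroblast collagen, had 14.4 and 15.8 normalised reads for the positive side against 27.6 and 77.3 for the negative side of the ES cell comparison.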
